A study of Mus musculus with 7 samples.

Results

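Caveolae are flask-shaped pits of the plasma membrane. Caveolins form their inner coat, the cavins stabilise that coat from the cytoplasm, and in some vessels PLVAP closes the opening with a diaphragm. In most vascular beds caveolae carry molecules across the endothelial cell, a route called transcytosis. Brain endothelium keeps this route low as the barrier matures, and MFSD2A, a lipid transporter of the endothelial membrane, restrains the formation of caveolar vesicles there. The 7 genes described here are the caveolins Cav1 and Cav2, the cavins Ptrf (cavin 1), Sdpr (cavin 2) and Prkcdbp (cavin 3), the diaphragm gene Plvap, and Mfsd2a. They were chosen by symbol, with earlier results of these data known, and each matched 1 of the 23358 gene entries of the authors' deposited table.

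The cells came from brains of C57Bl6 mouse embryos at stage E14.5 and were sorted on TdTomato, the red fluorescent protein of the Ai14 reporter allele, which marks cells in which Cre recombinase has acted. There were 3 control libraries and 4 libraries labelled as without Tgfbr2, a receptor subunit for transforming growth factor β, each made from 2000 to 5000 cells. The sources used here do not give the Cre driver, whether controls carried Cre, or which exons were removed. They also do not say whether libraries were made from different embryos. A p-value here thus rests on the authors' test of these libraries only, and the scatter among them may be technical. Each gene has 1 FPKM value per group, made by the authors (fragments scaled for transcript length and library size). Values of single libraries were not analysed here, so neither depth nor overlap between libraries could be given, and the q-value of the authors' test is the error measure of each difference.

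The labels were compared with the data before the members were read. Tgfbr2 stood at 91.1 FPKM in the control and 65.4 FPKM in Tgfbr2-deficient cells, with a log2 fold of -0.48 and q = 0.0953 in the authors' deposited table, and its difference did not pass the threshold of 0.05. A gene-level FPKM can include exons that remain after recombination, but whether it did so here was not tested, nor was any other reason for the level of Tgfbr2. The cells are labelled endothelial, but the median of the 12 macrophage markers was 840 FPKM (control) and 360 FPKM (Tgfbr2-deficient), against 2.28 and 26.0 FPKM for the 15 endothelial markers. A gene was counted where the authors had tested it and where either group reached 1 FPKM, which left 13356 genes.

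Cav1 and Cav2 are neighbours on mouse chromosome 6, and Cav1 passed the test while Cav2 did not, so the sequence in front of each start site is printed here with that of Sdpr, the member with the lowest control level. Cav2 (ENSMUSG00000000058.6) is annotated on the plus strand at chr6:17281185-17289115 and Cav1 (ENSMUSG00000007655.16) on the same strand at chr6:17306335-17341452 in GENCODE M21 of GRCm38, with 17219 bases between them. Sdpr, now named Cavin2 (ENSMUSG00000045954.7), lies at chr1:51289126-51302960 on the plus strand. All 3 are protein-coding. The windows hold the 250 bases before the RefSeq start site in GRCm38.p6, and they overlap no GENCODE exon. They are chr6:17306085-17306334 for Cav1, chr6:17280935-17281184 for Cav2 and chr1:51288876-51289125 for Sdpr, each on the plus strand and written 5′ to 3′. Capitals mark matches to the motifs described after the sequences.
Cav1: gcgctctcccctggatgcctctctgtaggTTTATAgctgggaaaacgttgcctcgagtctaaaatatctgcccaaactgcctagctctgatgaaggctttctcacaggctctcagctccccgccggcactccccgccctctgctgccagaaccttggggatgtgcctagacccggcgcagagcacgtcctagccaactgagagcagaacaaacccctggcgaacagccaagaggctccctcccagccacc
Cav2: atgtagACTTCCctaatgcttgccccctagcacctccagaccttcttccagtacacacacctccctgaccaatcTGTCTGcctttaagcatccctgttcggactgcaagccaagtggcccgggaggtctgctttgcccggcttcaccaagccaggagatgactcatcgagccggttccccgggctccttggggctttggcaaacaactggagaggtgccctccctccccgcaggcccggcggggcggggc
Sdpr: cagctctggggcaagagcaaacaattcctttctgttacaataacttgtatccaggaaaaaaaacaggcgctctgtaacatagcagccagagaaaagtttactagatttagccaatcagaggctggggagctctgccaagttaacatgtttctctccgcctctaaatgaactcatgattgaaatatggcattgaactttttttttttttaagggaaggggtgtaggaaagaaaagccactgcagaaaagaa

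The motifs were searched on both strands: GGAAGT for ETS factors, CAGACA for SMAD proteins, TGTTTAC for forkhead factors, ACAAAG for SOX factors, GGAATG for TEAD factors and TATAAA for the TATA box. ETS and TEAD letters share the core GGAA but cannot match at the same place. Among 32851 RefSeq promoters of the same window, these were held by 19.7%, 17.1%, 3.17%, 16.5%, 12.6% and 12.4%. The Cav2 window held the ETS letters 244 to 239 bases and the SMAD letters 176 to 171 bases before the start, both on the opposite strand. The Cav1 window held the TATA letters on the opposite strand, 221 to 216 bases before the start, and the Sdpr window held none of the 6 motifs. The window of another annotated Cav1 start, at position 17307640, held none either, nor did that of Mfsd2a, while that of Ptrf held the TEAD letters on the opposite strand, 247 to 242 bases before the start at position 100970617. A match is a description of the letters, and no match says only that they are not in this window. By base composition the Cav1 and Cav2 windows were alike, with 59.6% and 62.0% G or C and 10 CG dinucleotides each, while the Sdpr window had 40.4% and 2, against medians of 52.4% and 6 over all promoters. Windows of 5 of the 7 members were matched, and those of Ptrf and Mfsd2a are not printed because they overlap annotated exons of Cavin1 and 4933421A08Rik.

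Of the 7 members, 6 were higher in the Tgfbr2-deficient group, none was lower, and Cav2 did not pass the threshold. All 7 passed the filter on low values, Sdpr only through the group in which it was high. The 6 that rose had the smallest q-value that the authors' deposited table holds, 0.00029, shared by every gene at its smallest p of 5e-05 (2357 tested genes), so they could not be ordered by it. Their fold ranged from 5.73 for Mfsd2a to 31.2 for Cav1. Of all tested genes, 23.9% were higher and 14.7% lower at a deposited q under 0.05, 38.6% in either direction. With a log2 fold of 1 or more in size as a further condition, which the 6 members also met, these shares were 20.1% higher and 2.76% lower. Since the members were chosen with earlier results of these data known, their count beside these shares is a description only. Low genes rose more often: of the 3060 tested genes with a control level in the range of those 6 members, 0.642 to 3.44 FPKM, 48.6% were higher and 1.93% lower. That range was chosen after the values were seen. Its genes under 1 FPKM in the control passed the filter only through the Tgfbr2-deficient group, so they could not have been counted as lower. How far this set the 2 shares was not tested. In RNA from many cells, more cells of a type and more RNA per cell cannot be told apart.

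**Figure D1:**
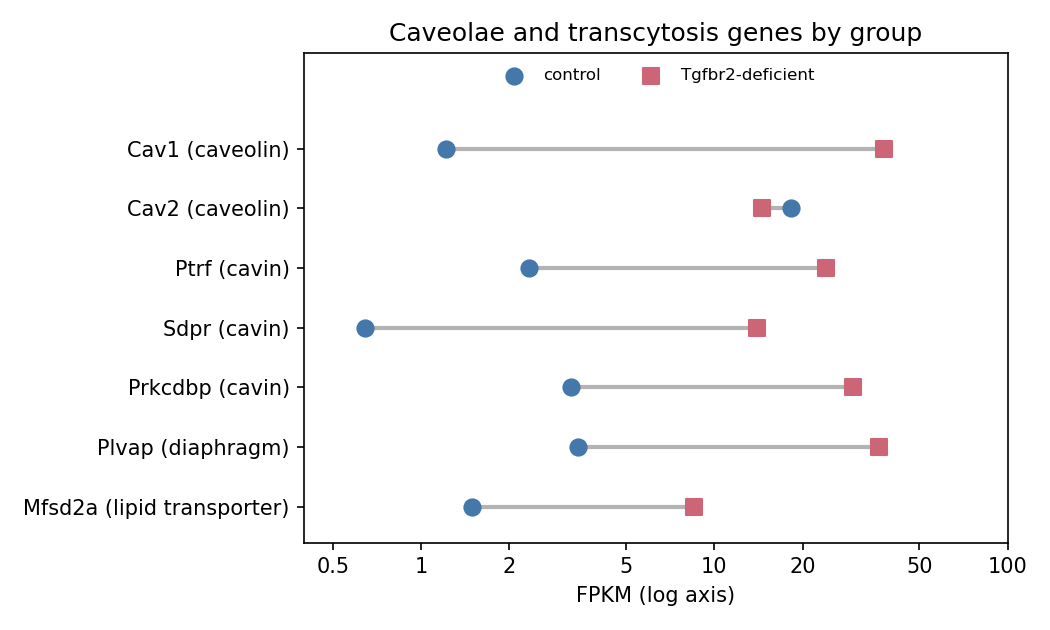
FPKM of each member in the control group (circles) and the Tgfbr2-deficient group (squares) on a log axis, 1 pooled value per group with no error bar because values of single libraries were not analysed. 6 members lie to the right in the Tgfbr2-deficient group, from 8.52 FPKM for Mfsd2a to 38.0 FPKM for Cav1, and Cav2 at 18.3 and 14.6 FPKM did not pass the test.

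Cav1, the coat protein without which non-muscle cells form no caveolae, stood at 1.22 FPKM in the control and 38.0 FPKM in the Tgfbr2-deficient group. It went from a level above 14.8% of the tested genes to one above 84.2% of them. Its log2 fold was 4.96 in the authors' deposited table and 4.13 on log2(FPKM + 1), a scale that allows for 0 and understates the change of low genes. On that scale 20 of the 13356 tested genes rose by more, which places Cav1 at rank 21. The deposited test statistic, a score of the fold from the authors' test, whose settings were not given, was 9.08 for Cav1. It ranked 9 from the top.

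Cav2, which assembles with caveolin 1 and needs it to reach the cell surface, stood at 18.3 FPKM in the control and 14.6 FPKM in the Tgfbr2-deficient group. Its log2 fold was -0.33, with p = 0.142 and q = 0.245, in the authors' deposited table, so a difference was not shown in either direction. On log2(FPKM + 1) its value was -0.31, and it becomes 0.23 when folds are centred on the ribosomal protein genes, whose median was -0.54. Genes with a control level within a factor of 2 of that of Cav2, a range chosen after the values were seen, were higher in 6.86% and lower in 16.4% of 4068 cases, with a median log2 fold of -0.25. The value of Cav2 was close to that median.

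The shares of the caveolin pair changed places between the groups. Cav1 made up 6.24% of the summed caveolin FPKM in the control and 72.3% in the Tgfbr2-deficient group, while the sum went from 19.5 to 52.5 FPKM. Per length, Cav1 stood at 0.0666 of the Cav2 level in the control and at 2.60 times it in the Tgfbr2-deficient group. The ratio between the genes was not tested, since it has 1 value per group. An annotated antisense RNA, Gm15581, spans both genes but shares 0 exonic bases with either, and the entry of Cav2 in the authors' deposited table starts at 17281341, inside the GENCODE gene. The next entries outward, Tes before Cav2 and Met after Cav1, stood at 12.8 and 15.4 FPKM and at 1.15 and 1.87 FPKM in the control and Tgfbr2-deficient groups. In the authors' deposited table Met, a receptor tyrosine kinase, rose with q = 0.0476, and Tes, a cytoskeletal adaptor, did not pass with q = 0.366.

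All 3 cavins rose. Ptrf, the cavin that all caveolae require, stood at 2.33 FPKM in the control and 24.1 FPKM in the Tgfbr2-deficient group, a fold of 10.4. Sdpr, which shapes caveolar membrane and is prominent in endothelium, stood at 0.642 and 14.0 FPKM, a fold of 21.8. Prkcdbp, the cavin that binds protein kinase C delta, stood at 3.24 and 29.8 FPKM, a fold of 9.19. Deposited test statistics were 6.67, 7.43 and 5.28 for Ptrf, Sdpr and Prkcdbp in the authors' deposited table. Prkcdbp was the most abundant cavin per length in both groups and Sdpr the least.

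Within the summed cavin FPKM, which went from 6.21 to 67.8, Ptrf held 37.5% in the control and 35.5% in the Tgfbr2-deficient group. Prkcdbp held 52.2% and 43.9%, and Sdpr 10.3% and 20.6%. For each Prkcdbp there were 0.198 Sdpr in the control and 0.470 in the Tgfbr2-deficient group. Cav1 per Ptrf went from 0.523 to 1.58. None of these shares and ratios has an error, and their differences were not tested. In the libraries, which were made without strand, 374 of the 1662 exonic bases of Prkcdbp overlap Gm45667, an annotated locus of the opposite strand, so reads of the pair cannot be told apart there. The entry of Sdpr spans 115394 bases because the table joins it with 9330175M20Rik, which was listed at 0 in both groups and shares 0 exonic bases with Sdpr.

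Ptrf, now Cavin1 (ENSMUSG00000004044.9), lies on the minus strand of chromosome 11 from 100956733 to 100970887, and Prkcdbp, now Cavin3 (ENSMUSG00000037060.3), on the minus strand of chromosome 7 from 105480083 to 105482300 (GENCODE M21, GRCm38). Plvap (ENSMUSG00000034845.6) lies on the minus strand of chromosome 8 from 71497765 to 71511752 and Mfsd2a (ENSMUSG00000028655.11) on the minus strand of chromosome 4 from 122946850 to 122961188. All 4 are protein-coding. Of the 12 entries of other genes nearest to the 7 members on either side, 3 were higher, 3 lower, 5 did not pass and 1 was not tested.

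Plvap, which is made by fenestrated and immature vessels and falls as the barrier forms, stood at 3.44 FPKM in the control and 36.4 FPKM in the Tgfbr2-deficient group, a fold of 10.6. Mfsd2a, which carries lysophosphatidylcholine with omega-3 fatty acids into the brain, stood at 1.49 and 8.52 FPKM, a fold of 5.73. Both passed the test, with log2 folds of 3.40 and 2.52 in the authors' deposited table. The gene that marks permeable vessels and the gene that restrains transcytosis were thus both higher in the Tgfbr2-deficient group. Plvap per Mfsd2a went from 2.31 to 4.27 and Cav1 per Mfsd2a from 0.818 to 4.45, differences that were not tested. Mfsd2a had the smallest fold of the 6 members that rose, at rank 426 of the tested genes on log2(FPKM + 1), where the other 5 ranked between 21 and 108.

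The order of the levels per length changed accordingly. In the control it ran from Cav2 at 18.3 FPKM through Plvap, Prkcdbp, Ptrf, Mfsd2a and Cav1 to Sdpr at 0.642 FPKM. In the Tgfbr2-deficient group it ran from Cav1 at 38.0 FPKM through Plvap, Prkcdbp, Ptrf, Cav2 and Sdpr to Mfsd2a at 8.52 FPKM. Neighbours in these orders, such as Plvap and Prkcdbp at 3.44 and 3.24 FPKM in the control, could not be compared with the spread between libraries. Plvap, Prkcdbp and Ptrf kept their order relative to each other. The median of the 7 members was 2.33 FPKM in the control and 24.1 FPKM in Tgfbr2-deficient cells. Their median log2(FPKM + 1) fold was 2.91, against -0.08 for all tested genes.

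**Figure D2:**
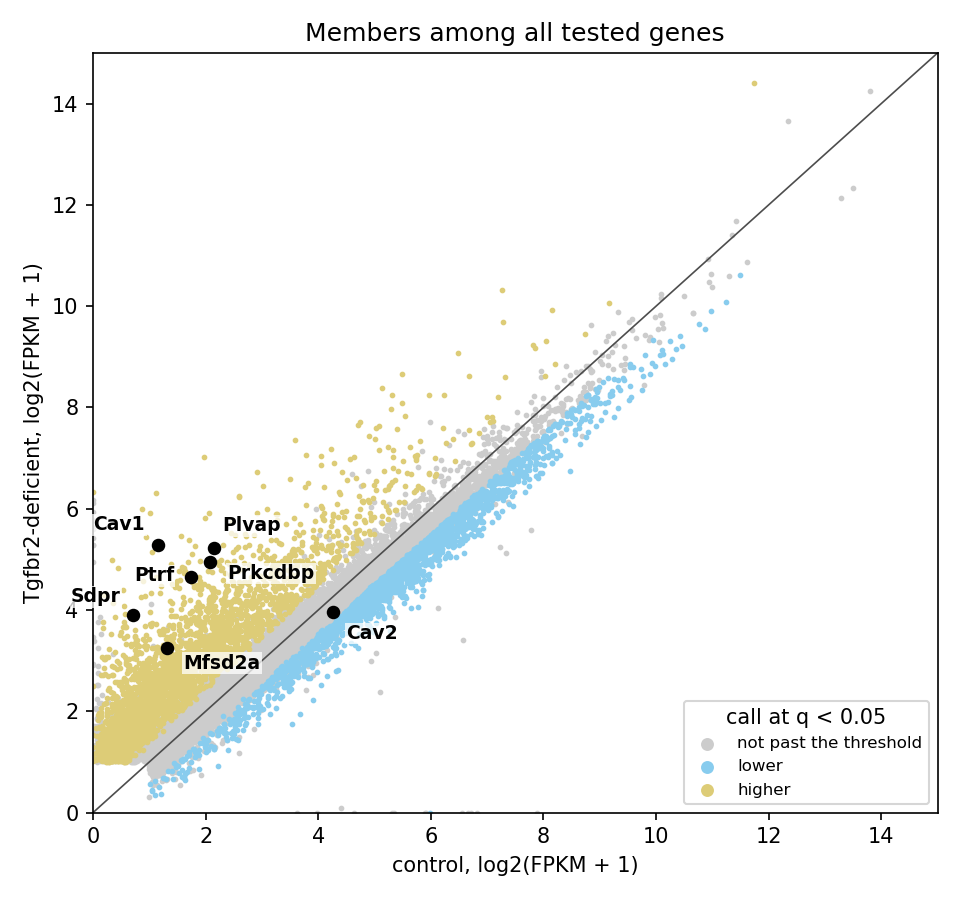
Level of every tested gene in the control (x axis) and the Tgfbr2-deficient group (y axis), both as log2(FPKM + 1), coloured by call, with the 7 members in black and the line of equal levels. Cav2 lies near the line and the other 6 members lie well above it, Cav1 farthest at a log2 fold of 4.13.

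Other cells of the embryonic brain also bear caveolae, and markers of several cell types moved with the members. Of 15 endothelial markers 14 rose and none fell, and their summed level went from 86.4 to 448 FPKM. Among them Kdr, the main VEGF receptor, stood at 1.94 and 43.0 FPKM, Pecam1 at 4.81 and 35.8 FPKM, and Cdh5, the cadherin of endothelial junctions, at 2.75 and 19.0 FPKM. All 8 markers of brain endothelium, a list that includes Mfsd2a, rose, with sums of 55.4 and 390 FPKM. No marker in either list was at 0. Some in each list were under 1 FPKM in the control, such as Flt1 at 0.462 FPKM and Clec14a at 0.241 FPKM in the first. These passed the filter only through the Tgfbr2-deficient group and could not have been counted as lower.

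Mural and connective tissue cells, which are rich in caveolae too, gave a like picture. Among 10 markers of pericytes and smooth muscle, 9 rose and none fell, with sums of 17.1 and 118 FPKM, among them Pdgfrb at 2.63 and 16.8 FPKM. All 8 fibroblast markers rose, with sums of 132 and 1100 FPKM, among them Col1a1 at 44.1 and 404 FPKM. Of 12 macrophage markers 11 fell and none rose, with sums of 11034 and 4946 FPKM, among them Csf1r at 1247 and 494 FPKM. No marker in these 3 lists was at 0. Some pericyte and smooth muscle markers were under 1 FPKM in the control. These passed the filter only through the Tgfbr2-deficient group and could not have been counted as lower. The part of these cell types in the rise of the caveolar genes was not tested.

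Further lists moved in the same libraries. Of 6 markers each, 5 mast cell, 5 erythroid, 5 platelet and 6 neuron markers rose, and 1 erythroid and 1 platelet marker fell. The sums of the mast cell, erythroid and neuron lists went from 7.95 to 359, from 395 to 2343 and from 107 to 246 FPKM. The erythroid marker that fell was Epor, the erythropoietin receptor. The platelet sum, 1885 and 876 FPKM, ran against its list because it was nearly all Pf4, a chemokine gene that fell from 1877 to 747 FPKM. The 5 platelet markers that rose were all under 5 FPKM in the control and between 12.3 and 42.2 FPKM in the Tgfbr2-deficient group. Some of them, and some mast cell markers, were under 1 FPKM in the control and passed the filter only through the Tgfbr2-deficient group. Adipocytes, the cell type best known for caveolae, had Adipoq at 0.0405 and 0.203 FPKM and Plin1 listed at 0 in the control and at 0.0129 FPKM in the Tgfbr2-deficient group, so their defining markers were at or near 0. The muscle genes of the same list, Myh3, Actc1 and Myog, all rose, Actc1 from 13.9 to 42.6 FPKM. The part of muscle in the result was not tested. The muscle caveolin Cav3 stood at 0.167 and 0.868 FPKM and the muscle cavin Murc (cavin 4) at 0.0668 and 0.374 FPKM, both under the filter of 1 FPKM.

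Set against the endothelial denominators used here, within the same group, the members fell into 3 patterns. The ratio of a member's FPKM to the median of the endothelial markers was formed in each group, which is possible because FPKM is per length, but it carries no error and its change was not tested. Cav1 went from 0.535 to 1.46 times the endothelial median, an increase of 2.72 times, and increased by 1.40 to 4.51 times against Kdr, Pecam1 or Cdh5 alone. Cav2 went from 8.03 to 0.560 times the endothelial median, and Mfsd2a from 0.654 to 0.327. Both were lower relative to each of those 3 genes as well. Cav2 stood at 0.0359 to 0.115 and Mfsd2a at 0.258 to 0.829 of its control ratio. Within the endothelial list only Eng and Egfl7 changed by less than Mfsd2a, with folds of 2.96 and 1.36 against 5.73. Relative to these Mfsd2a was higher, so its direction depended on the gene chosen.

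For the remaining members the direction differed among the denominators used here. Plvap was at 1.51 times that median in the control and 1.40 times in the Tgfbr2-deficient group, Ptrf at 1.02 and 0.925 times, and Prkcdbp at 1.42 and 1.14 times. All 3 increased against Pecam1 and Cdh5 and decreased against Kdr. Sdpr went from 0.282 to 0.537 times the median, increased against Pecam1 and Cdh5 and stood at 0.980 of its control ratio against Kdr. Among the members, Cav1 was the one that increased against all 4 denominators, each of which rose by less than Cav1 did. Within the endothelial list Clec14a alone rose by more, 43.9 times against 31.2 for Cav1, so Cav1 was lower relative to it.

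**Figure D3:**
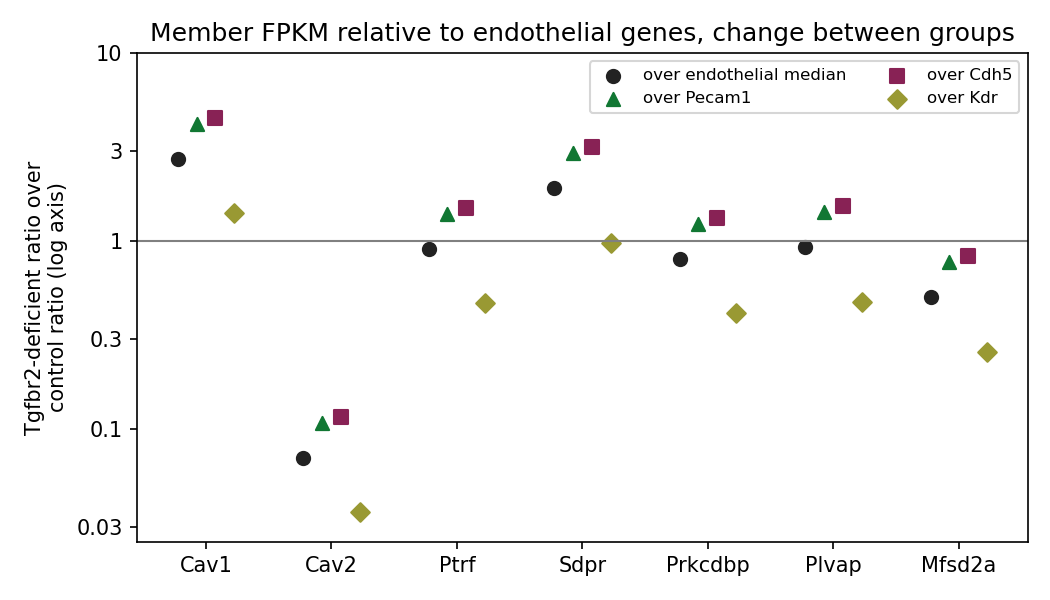
Change between the groups (Tgfbr2-deficient ratio over control ratio, log axis) of each member's FPKM relative to the endothelial marker median, Pecam1, Cdh5 or Kdr, 1 point per denominator and no error bars since each group has 1 pooled value. All 4 points lie above 1 for Cav1 and below 1 for Cav2 and Mfsd2a, while for the other 4 members they lie on both sides of 1.

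Genes that work with caveolae were followed in 7 lists with 72 genes, of which 65 were tested past the filter. Of these, 34 rose, 14 fell and 17 did not pass, and their median log2(FPKM + 1) fold was 0.57, against -0.08 for all tested genes. Since the lists were chosen with earlier results of these data known, this contrast is a description only. Direction went with abundance, with a limit set by the filter. A gene under 1 FPKM in the control passed only through the Tgfbr2-deficient group and could not have been counted as lower. Gpihbp1 at 0.195 FPKM and Mal at 0.179 FPKM in the control were such cases. Every list held at least 1 except the clathrin coat and the regulators. How far the filter set the counts and shares below was not tested. Of 32 partner genes with a mean under 20 FPKM over the groups 28 rose and 0 fell, and of 33 at 20 FPKM or more 6 rose and 14 fell. Over all tested genes the same split, chosen after the values were seen, gave 31.9% higher and 6.39% lower below 20 FPKM, and 6.99% higher and 32.5% lower at or above it.

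Genes for proteins that bend or close the neck of caveolae moved in both directions, which went with abundance as it did over the lists together. Of 11 tested coat and neck partners 6 rose and 3 fell, with a median log2(FPKM + 1) fold of 0.89. Over all tested genes 23.9% were higher and 14.7% lower. The 6 that rose were all under 5 FPKM in the control, and the 3 that fell stood at 68.9 FPKM or more. With a minimum of 5 FPKM, which tests fewer genes, 2 were higher, and with a minimum log2 fold of 1 the lower count was 1. Ehd2, the ATPase that rings the caveolar neck and holds it at the surface, stood at 1.28 FPKM in the control and 19.3 FPKM in the Tgfbr2-deficient group, a fold of 15.1 with q = 0.00029 in the authors' deposited table. Its relatives differed from it. Ehd3 rose from 0.829 to 3.58 FPKM, whereas Ehd4 fell from 299.6 to 126 FPKM and Ehd1, at 151 and 103 FPKM, did not pass with q = 0.0547 in the authors' deposited table. Pacsin1, which bends membranes, rose from 0.809 to 4.25 FPKM and Pacsin2, the relative known from caveolae, fell from 68.9 to 39.9 FPKM. Dnm2, the dynamin of most tissues, which pinches off vesicles of many kinds, fell from 140 to 89.2 FPKM.

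Of 8 tested genes for proteins that reside in caveolae or use them as carriers, 5 rose and 1 fell, and the list's median was 1.27. At q under 0.01 the counts were 3 higher and 0 lower. Nos3, which makes nitric oxide in endothelium and is bound by caveolin 1, rose from 0.673 to 9.13 FPKM. Gpihbp1, which moves lipoprotein lipase across capillary endothelium, rose from 0.195 to 5.51 FPKM (q = 0.0218, from the authors' deposited table). Kdr, given above, had the largest fold of this list on log2(FPKM + 1), 3.91. Scarb1, a lipoprotein receptor also present on macrophages, fell from 76.7 to 51.5 FPKM.

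The clathrin coat, which forms the main other route into the cell, had the lowest median of the 7 lists, -0.80, and it stayed below 0 at -0.27 when centred on ribosomal protein genes. Of its 12 genes 6 fell, 1 rose and 5 did not pass. The lower count was 4 at q under 0.01 and also with a minimum log2 fold of 1. This list was abundant, with a median of 146 FPKM in the control. Of all tested genes 14.7% were lower, and of those with a mean of 20 FPKM or more 32.5% were lower. The light chain Clta fell from 755 to 294 FPKM, the adaptor subunit Ap2s1 from 454 to 212 FPKM and the cargo adaptor Dab2, which macrophages express strongly, from 1147 to 462 FPKM. Dab2 passed narrowly, with q = 0.0479 in the authors' deposited table. Clta per Cav1 went from 620 to 7.75. Flotillins and raft proteins were mixed, with 2 of 5 higher and 2 lower and a median of -0.40 that becomes 0.13 when centred on ribosomal protein genes. The higher count was 1 with a minimum of 5 FPKM, and the lower count was 1 at q under 0.01 and 0 with a minimum log2 fold of 1. Plp2, a membrane protein of epithelia and blood cells, rose from 18.0 to 37.8 FPKM, Mal, a raft protein, from 0.179 to 1.01 FPKM, and Stom, stomatin, fell from 55.3 to 33.1 FPKM.

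Receptors that take ligands through the endothelial cell rose in 6 of 9 cases, with 1 lower and a median of 0.89. Lsr, a lipoprotein receptor of tricellular junctions, rose from 4.06 to 18.5 FPKM, Lrp8, a receptor of reelin and lipoproteins, from 2.93 to 12.5 FPKM, and Vldlr from 0.460 to 2.52 FPKM. The member that fell, Fcgrt, the Fc receptor that recycles antibodies in endothelium and macrophages, went from 742 to 342 FPKM. In the list of lipid uptake and Mfsd2a-related genes 6 of 10 rose, 1 fell (0 at q under 0.01 or with a minimum log2 fold of 1) and 3 did not pass, with a median of 0.63. Spns2, the sphingosine-1-phosphate exporter of endothelium, rose from 1.96 to 11.05 FPKM, Fabp4, a fatty acid carrier, from 0.432 to 4.59 FPKM, and Fabp7, its relative in radial glia, from 25.5 to 74.8 FPKM.

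Regulators of caveolin and cavin genes or proteins had the highest median of the 7 lists, 1.42, with 8 of 10 higher and 0 lower. Foxf2, a forkhead factor of brain pericytes and endothelium that is also among the brain endothelial markers, rose from 1.01 to 12.2 FPKM. The transcriptional co-activators Wwtr1 and Yap1, which act through TEAD factors, rose from 1.94 to 13.4 FPKM and from 1.02 to 5.42 FPKM. Many of the partner genes are active in more than 1 of the cell types whose markers moved, and the part of those cells in the lists was not tested.

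**Figure D4:**
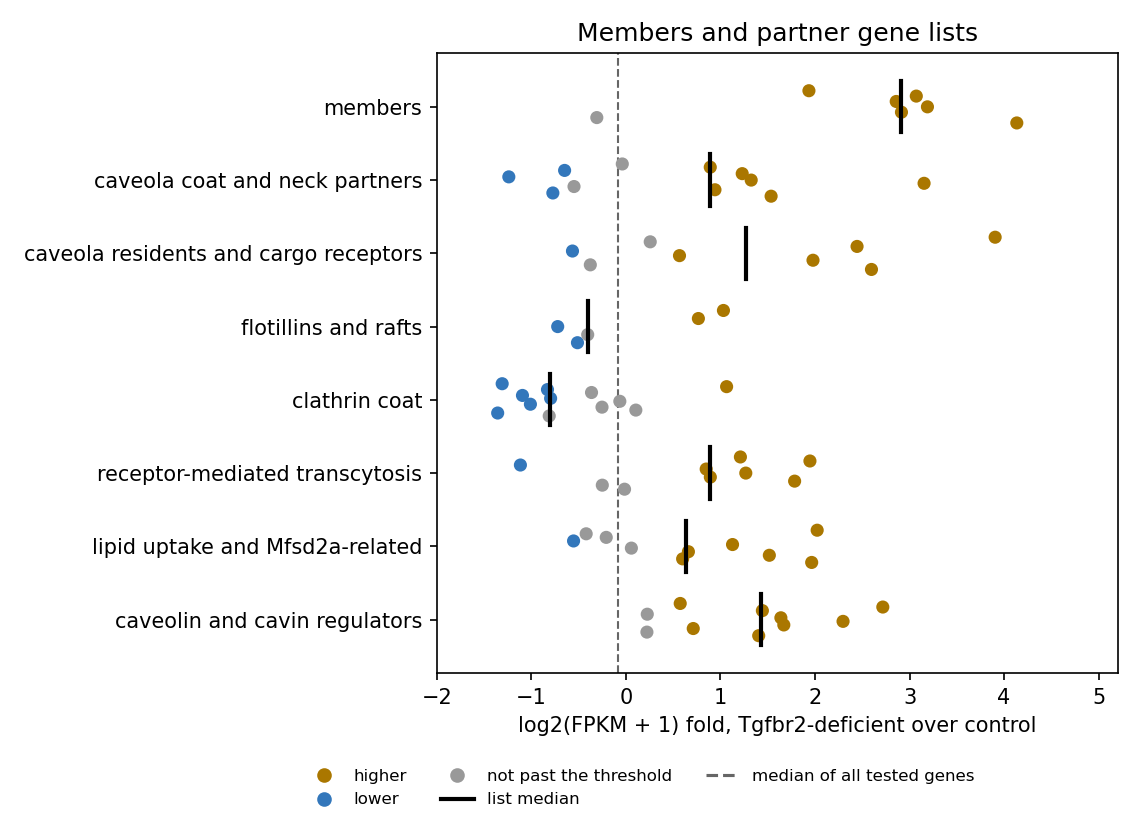
Log2(FPKM + 1) fold (Tgfbr2-deficient over control) of each tested gene of the members and of the 7 partner lists, coloured by call, with list medians as black bars and the median of all tested genes as a dashed line at -0.08. The members' median lies at 2.91, the clathrin coat's at -0.80, and 6 of the 7 members lie to the right of 1.

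The genes whose pair of levels lay nearest to each member were found by the Euclidean distance on log2(FPKM + 1) over the 2 groups, among 13339 tested entries of a single symbol. With 2 values per gene this measures only that the levels are alike. Nearest to Cav1 were Nrgn at 1.07 and 34.5 FPKM, Itga2b at 0.925 and 42.2 FPKM and Gata2 at 1.61 and 29.2 FPKM, the largest of their distances being 0.44. Nearest to Sdpr were Slc45a3, Apln and Flt1, and nearest to Plvap were Ddit4, Col6a1 and Fkbp10. The closest to Ptrf were Aplnr, Lamb1 and Tgm2, and the closest to Prkcdbp were Eln, Trib3 and Pxdn. Mfsd2a was nearest to Sema6a, Aldh1a2 and Phldb2. Cav2 lay nearest to Ngrn, Zfp746 and Angel2, Ngrn with 18.1 FPKM in the control and 14.6 FPKM in the Tgfbr2-deficient group.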

How the data were processed

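Complementary DNA was made from total RNA with the SMART-Seq v4 kit and libraries with Nextera XT, per the labels' protocols, and neither kit marks strand. Reads were single-end and 50 bases long. The submitters' processing notes name TopHat2, Cufflinks 2.2.1 and Cuffdiff, with mm10 as build. Annotation, normalization and test settings were not given in the sources used here. Deposited FPKM values are 1 per gene and group, per the file headers, made by the authors from the pooled libraries. The log2 fold (no pseudocount), the test statistic (a score), the p-value and the q-value are those of the authors' deposited table. It has 0 columns for single libraries, so depth is unknown and no intervals were set.

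Genes with the authors' status OK and 1 FPKM or more in at least 1 group were counted as higher or lower at q under 0.05. Folds for lists are log2(FPKM + 1). The table's starts count from 0 (49.1% of 21457 matched symbols started 1 base before the RefSeq start and 3.14% at it), so 1 was added. Members and lists were chosen with earlier results of these data known. Named were all members, then from each partner list the 3 called genes with the largest fold, the 3 genes nearest to each member, Tgfbr2 and 6 markers. Outside this rule, and chosen after their values were seen, are Ehd1, Ehd4, Pacsin2, Dnm2, Cav3, Murc, Scarb1, Fcgrt, Adipoq and Plin1. The same holds for Myh3, Actc1, Myog, Epor, Pf4, Tes, Met, Eng, Egfl7, Clec14a, Tfrc, Lrp1 and Slc7a5. Lists are described by counts and medians beside all tested genes, with no set test. Alternatives were no FPKM filter, 5 FPKM, q under 0.01, a minimum log2 fold of 1, recomputed q-values, a pseudocount of 0.1, centring, and other endothelial denominators. Counting was tested on simulated data. Protein sequences were not used here. The work used Python 3.11.15 with pandas 2.3.3.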

Additional observations from a re-analysis of the deposited data

How the results depend on the processing

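The counts of members, 6 higher and 0 lower, were the same under no FPKM filter, a minimum of 5 FPKM, q under 0.01, an added minimum log2 fold of 1 and recomputed q-values. Among partner genes, 14 of which were lower, 8 were lower at q under 0.01 and 6 with a log2 fold of at least 1. Single lists lost calls too: at 5 FPKM, which tests fewer genes, coat and neck partners kept a count of 2 higher and flotillins of 1, and at q under 0.01 caveola residents had 3 higher and 0 lower. With a minimum log2 fold of 1, coat and neck partners had 1 lower. Over all genes, 3195 higher became 1643 at 5 FPKM, and 1966 lower became 1026 at q under 0.01 and 368 with a log2 fold of at least 1. The members' median log2 fold of 2.91 became 3.32 with a pseudocount of 0.1 and 3.45 when centred on ribosomal protein genes, which adds 0.54 to every fold. That centring turned Cav2 to 0.23, the flotillin list to 0.13 and the median of all tested genes to 0.46.

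Relative to endothelial genes, the ratio between the groups was 0.923 for Plvap, 2.72 for Cav1, 0.0697 for Cav2, 0.905 for Ptrf, 1.90 for Sdpr, 0.803 for Prkcdbp and 0.5004 for Mfsd2a against the list median. With Pecam1 alone these became 1.42, 4.19, 0.107, 1.39, 2.93, 1.24 and 0.770, with Cdh5 alone 1.53, 4.51, 0.115, 1.498, 3.15, 1.33 and 0.829, and with Kdr alone 0.475, 1.40, 0.0359, 0.466, 0.980, 0.414 and 0.258, in the same order of genes. The change of denominator is the cause by construction. No paired analysis was possible because the values are pooled per group, and for the same reason no library could be left out. Depth is unknown, so how far it limits the low control values of Sdpr and Cav1 could not be said.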
